A study of Mus musculus with 28 samples.

Results

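Prm1, Smcp, Gapdhs, Ropn1, Akap3 and Brdt encode proteins that build, power or package the mouse sperm cell. They were taken by the RefSeq accession on the array, which gave 1 probe for each of the 6 genes among 30632 genes measured. Prm1 is a protamine, the small basic protein that replaces histones in the sperm nucleus. Brdt is the testis member of the BET bromodomain family, which binds acetylated histones and is needed for meiotic gene expression and for chromatin compaction in spermatids. Smcp is a cysteine-rich protein of the sperm mitochondrial capsule. Gapdhs is the sperm isozyme of glyceraldehyde-3-phosphate dehydrogenase, bound to the fibrous sheath of the tail. Akap3 is an A-kinase anchoring protein of that sheath, and Ropn1, ropporin, is a sheath protein that binds A-kinase anchoring proteins.

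In the mouse testis these genes are known for late activity. Protamine and other spermatid messages are made in haploid cells and many are stored before they are translated, while Brdt is known from meiotic spermatocytes onward. Fetal germ cells are called primordial germ cells (PGC) here. Female PGC enter meiosis before birth, and male PGC stop dividing and wait as prospermatogonia until after birth. The question addressed was which of the 6 genes had signal in samples other than testis.

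The series held 28 one-colour arrays in 14 groups of 2, all from mice without a stated treatment. PGC came from BDF1 x TgN(deGFP)18Imeg embryos of either sex, collected on day 10.5, 13.5 or 17.5 after mating (written E10.5, E13.5 and E17.5). Spermatogonia and oogonia came from BDF1 x Tg(Mvh-Venus)1Rbrc mice, with no age in the labels. Cultured lines were EG cells (embryonic germ cells, male and female, Rb(X.2)2Ad X 129/Sv, with a source field that names PGC of 12.5 days), female ES cells (embryonic stem cells, 129/Sv, line no5), male ES cells (F1 hybrid TgN (deGFP)20Imeg X MSM/Ms, line TMA5) and GS cells (germline stem cells, male, DBA/2). Testis was the adult organ of C57BL/6J mice. EG, ES and GS are spelled out here by common usage, since the labels give the abbreviations alone. The labels do not say how cells were purified, whether lines grew on feeder cells, or whether paired arrays stand for different mice or dishes. The p-values therefore rest on the scatter between the arrays, part or all of which may be technical.

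Levels are log2 of the processed signal minus the 75th percentile of the same array, taken over probes that passed the scanner's well-above-background flag on every array, so a level of 0 is that percentile. Between 17.8% and 76.7% of probes were well above background on an array, and the lowest such signal lay between -10.73 and -3.58, so a dim probe could be seen on some arrays and not on others. The highest of these limits belonged to an E10.5 male PGC array and the lowest to a GS array. Of 4 germ cell markers, Ddx4, Dazl and Mael were well above background on both arrays of every group. Dppa3 was so in every group but Testis, where it was on neither array. The flag did not set germ cells apart, since EG and ES cells passed it for all 4. Their summed linear signal there was 0.34 to 0.82, in multiples of the array's 75th percentile. Testis and GS arrays shared 1 slide. Spermatogonia, oogonia, EG and ES each lay on slides of their own, so slide and group cannot be told apart where they are compared with another group. PGC replicates 1 and 2 were scanned on different days, and values within each day are given beside the PGC results. Some stage differences within a day also cross slides. E13.5 against E10.5 in replicate 2 crosses slides 6 and 7, and E17.5 against E13.5 in replicate 1 crosses slides 1 and 2.

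The promoters are shown first, and no link between them and the levels was tested. RefSeq (GRCm38.p6) gave windows from 250 bases before to 50 after each start, and 280 bases are printed, 250 before and 30 after the start, 5′ to 3′ on the gene's strand. Capitals mark CACGTG (the E-box) in Brdt and TGANGTCA in the others, on either strand. TGANGTCA is the cAMP response element TGACGTCA loosened to any base, N, in the fourth place. It was chosen after the sequences had been read. The match in Prm1 and the second in Gapdhs lie on the opposite strand and read as TGACTTCA and TGACATCA here. The windows are chr5:107330944-107331223 on the plus strand for Brdt, chr6:126852848-126853127 on the plus strand for Akap3, chr16:10796794-10797073 on the minus strand for Prm1 and chr7:30743652-30743931 on the minus strand for Gapdhs.
Brdt: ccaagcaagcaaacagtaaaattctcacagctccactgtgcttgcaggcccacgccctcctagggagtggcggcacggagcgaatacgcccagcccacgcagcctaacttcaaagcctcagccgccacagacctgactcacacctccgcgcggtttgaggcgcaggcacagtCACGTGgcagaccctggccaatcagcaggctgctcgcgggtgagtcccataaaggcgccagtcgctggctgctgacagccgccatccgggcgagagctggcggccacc
Akap3: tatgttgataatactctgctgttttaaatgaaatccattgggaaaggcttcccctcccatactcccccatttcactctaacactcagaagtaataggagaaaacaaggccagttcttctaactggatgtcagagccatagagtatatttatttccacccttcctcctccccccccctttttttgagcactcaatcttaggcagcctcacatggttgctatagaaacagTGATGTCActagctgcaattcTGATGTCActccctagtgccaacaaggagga
Prm1: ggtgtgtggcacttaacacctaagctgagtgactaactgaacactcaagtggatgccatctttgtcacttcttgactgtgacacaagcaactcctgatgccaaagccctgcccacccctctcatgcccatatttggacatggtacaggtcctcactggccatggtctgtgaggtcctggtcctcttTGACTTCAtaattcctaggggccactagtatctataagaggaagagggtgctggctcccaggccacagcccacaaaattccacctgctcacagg
Gapdhs: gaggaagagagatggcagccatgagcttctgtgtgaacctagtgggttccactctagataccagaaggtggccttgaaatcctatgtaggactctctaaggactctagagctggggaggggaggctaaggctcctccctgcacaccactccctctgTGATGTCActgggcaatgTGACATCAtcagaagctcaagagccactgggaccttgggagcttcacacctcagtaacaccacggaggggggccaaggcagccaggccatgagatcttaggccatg

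The Brdt window held 23 CG pairs, a number reached by 21.5% of the 32851 promoter windows, whose median was 7. Akap3 and Smcp held 0 CG pairs, Prm1 held 1, Ropn1 held 2, and the window printed for Gapdhs held 4. CACGTG, read on both strands, was found in Brdt at position -78 from the start and in none of the other 5, against 7.15% of all windows. TGACGTCA was found in none of the 6 genes (1.79% of all windows), and GTTGCC, a motif of the X-box, in none of them either (12.5%). TGANGTCA, a pattern chosen after these sequences had been read and one that includes TGACGTCA, was found in every one of the 6 genes but Brdt, against 8.83% of all windows. Because of that choice, nothing is read from the contrast with 8.83%. TGANGTCA lay at -64 in Prm1, -94 and -76 in Gapdhs, -102 in Ropn1, -22 and -1 in Akap3 and 25 in Smcp. Gapdhs had a second annotated start, and its values here are those of the printed window. These matches describe letters in a window, not binding.

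**Figure D1:**
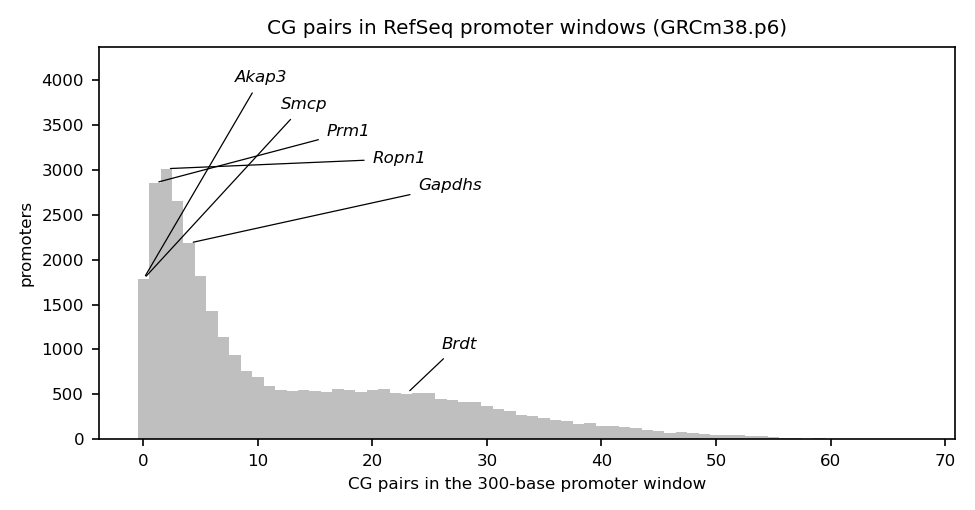
Number of promoter windows (y axis) by CG pairs in the window around the start (x axis), over 32851 RefSeq windows, with the 6 genes marked at their counts. Brdt sits at 23 CG pairs, and the other 5 sit at 0 to 4.

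Outside Testis, 5 of the 6 genes passed the flag on both arrays of some group, and Smcp passed it on none of those 26 arrays. Brdt was well above background on 23 of the 26 arrays and on both arrays of 10 of the 13 groups. Akap3 followed with 11 arrays and 4 such groups, then Gapdhs and Ropn1 with 4 arrays and 1 group each, and Prm1 with 3 arrays and 1 group. As background, 86.0% of the genes seen on both Testis arrays were also seen on both GS arrays, 54.9% in E17.5 male PGC and 32.7% in E10.5 female PGC. In these groups 2, 3 and 0 of the 6 genes were seen. The share seen in at least 1 of the 13 groups was not counted and cannot be below the 86.0% of GS. The 5 of 6 is thus a description, and nothing particular to these genes is read from it. When the highest detection limit of any array, -3.58, was applied to all of them, 1 of the 6 genes, Brdt, remained before testis. The flag for a signal that is positive and significant, a looser rule, counted all 6.

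**Figure D2:**
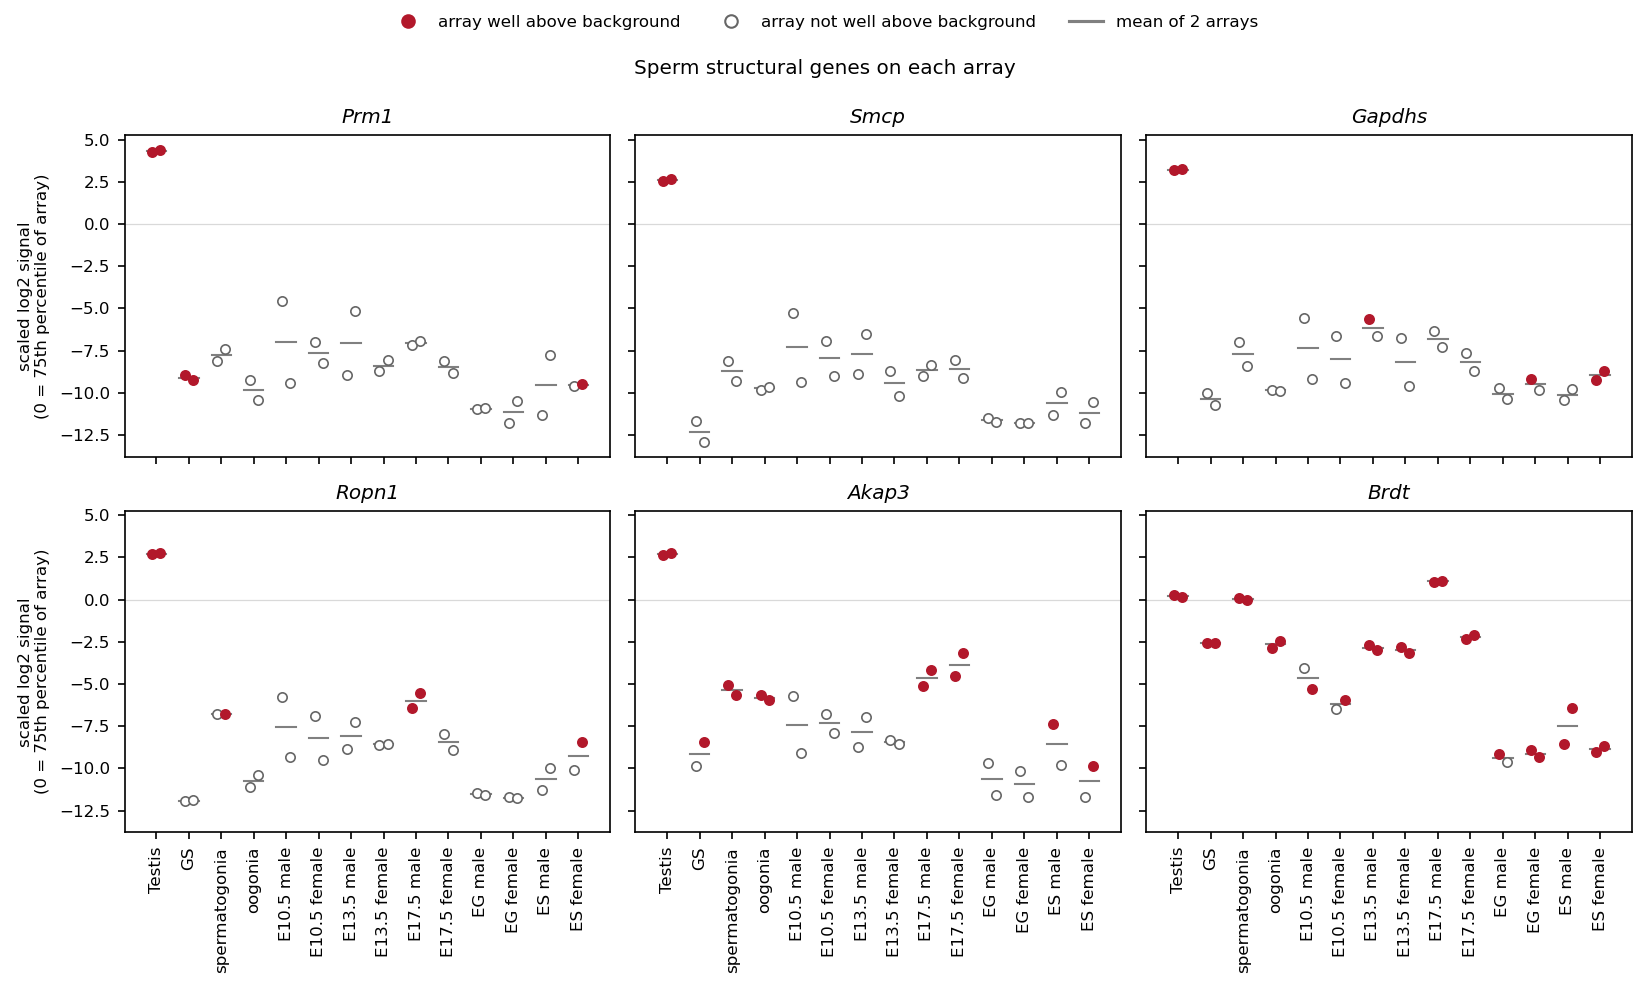
Scaled log2 signal (y axis, 0 is the array's 75th percentile) of each of the 6 genes on each of the 28 arrays by group (x axis). Filled points were well above background, open points were not, and bars are means of 2 arrays. Testis stands apart in 5 panels, and in the Brdt panel E17.5 male PGC lie above Testis.

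In Testis 5 of the genes lay far above 0 and Brdt lay close to it. Prm1 had 4.30 and 4.38, Gapdhs 3.18 and 3.24, Ropn1 2.68 and 2.77, Akap3 2.64 and 2.74, and Smcp 2.53 and 2.66. Brdt had 0.26 and 0.18 in Testis, against 0.07 and -0.02 in spermatogonia. Levels of different probes are not compared here as amounts of RNA.

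Brdt was the one gene of the 6 seen in E13.5 PGC of both sexes on both arrays, and its level differed by stage and sex. It measured -4.07 and -5.26 in E10.5 male PGC, -2.70 and -2.98 at E13.5, and 1.07 and 1.08 at E17.5. Only the -4.07 was not well above background. In female PGC it measured -6.45 (not well above background) and -5.95 at E10.5, -2.78 and -3.17 at E13.5, and -2.35 and -2.11 at E17.5. The 2 E17.5 male arrays were thus the highest of all 28, above both Testis arrays, and no other group overlapped them.

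From E10.5 to E13.5 Brdt rose in both sexes. The difference was 1.83 ± 0.47 on the log2 scale in males (SE, limma adjusted p = 0.00881), with 1.37 and 2.29 within the 2 scan days, and it was the 1 member tested, against 17.1% of 8870 genes called higher. In females it was 3.23 ± 0.48 (adjusted p = 8.32e-05), with 3.68 and 2.78 by day, again the 1 member tested, against 24.3% of 11402 genes. Brdt entered both tests through its E13.5 arrays alone. The male call was lost under 6 of 14 alternatives, for example without E10.5 male replicate 2 (1.23, adjusted p = 0.0974) and without E13.5 male replicate 1 (1.69, adjusted p = 0.0613). With the E10.5 array of replicate 1, where Brdt was not well above background, raised to its own limit, the difference was 1.58 in males (0.88 and 2.29 by day) and 2.45 in females (2.13 and 2.78), a calculation added after seeing the data, with no test. Normexp background correction took the difference down to 0.52 in males and 0.97 in females, neither past the threshold. Germ cell markers moved with this step, with 3 of 4 called higher in each sex (median log2 difference 2.79 in males and 3.34 in females). Their summed signal was 9.66 to 12.87 in E13.5 male PGC against 3.67 to 3.83 in E10.5 male PGC, and 8.06 to 9.55 in E13.5 female PGC against 2.80 to 4.20 in E10.5 female PGC. In males 4 of 5 Sertoli cell markers were called higher and 1 lower, and the 1 blood marker tested was called higher. Of the 7 Sertoli cell markers, 1 was well above background on both E10.5 male arrays and 5 on both E13.5 male arrays. Most of those tested thus entered through E13.5 alone. The summed signal of the 7 went the other way, at 2.68 to 3.44 in E13.5 male PGC against 5.35 to 5.41 in E10.5 male PGC. In females 0 of 2 Sertoli cell markers were called higher and 1 lower, and the 1 blood marker tested did not pass. The part of these markers in the Brdt result was not tested.

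From E13.5 to E17.5 the sexes parted. In males Brdt rose 15.1-fold, a log2 difference of 3.92 ± 0.49 (adjusted p = 9.60e-06), with 3.78 and 4.06 within the 2 scan days. In females the difference was 0.74 ± 0.48 (adjusted p = 0.235), with 0.42 and 1.06 by day. The male change minus the female change was 3.18 ± 0.69 (adjusted p = 0.00209), with 3.35 and 3.002 by day, against 19.6% of 13985 genes called higher in this interaction. It was the 1 member called of 3 tested. At E17.5 Brdt was 9.93-fold higher in male than in female PGC (3.31 ± 0.49, adjusted p = 3.16e-05), and both day values, 3.43 and 3.195, had that direction. These Brdt calls in E17.5 PGC held under each alternative run.

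**Figure D3:**
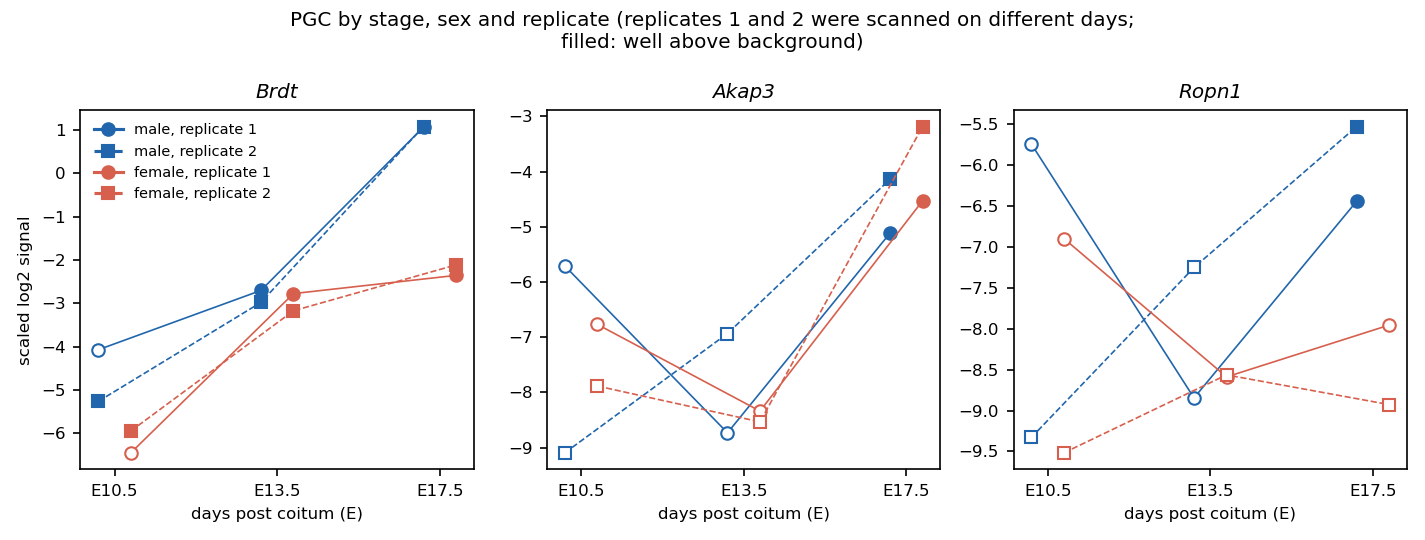
Scaled log2 signal (y axis, a separate range in each panel) of Brdt, Akap3 and Ropn1 in PGC by stage (x axis), with 1 line per sex and replicate and filled points well above background. Brdt parts by sex at E17.5, where males measure 1.07 and 1.08 and females -2.35 and -2.11, while Akap3 is well above background in both sexes at that stage.

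Markers of other cell types moved with the sexes at E17.5. Of 7 Sertoli cell markers on the array, the 6 tested in this comparison were called higher in male PGC, where 32.5% of 13387 genes were. The 7 had a summed linear signal of 3.54 to 6.499 in male and 0.28 to 0.39 in female arrays. It is given in multiples of the array's 75th percentile. The same sum was 5.38 to 5.41 in E10.5 female PGC, 3.43 to 3.63 in E13.5 female PGC and 3.30 to 4.08 in female ES cells. Rhox5, 1 of the 7, was well above background on all 26 arrays outside Testis. The sum is therefore not read as an amount of Sertoli cells. Gata4 was not tested, and Sox9, Cst9 and Dhh were not well above background on either E17.5 female PGC array. Their part in the results for Brdt, and in those for Ropn1 and Tnp1 given further on, was not tested. Markers of haploid spermatids gave a summed signal of 0.203 to 0.230 in E17.5 male PGC and 25.15 to 25.35 in Testis. In E17.5 male PGC, 1 of 5 of them, Tnp1, was well above background on both arrays, while Akap4, Odf1 and Spaca1 were on neither.

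Brdt in spermatogonia and Testis lay within about 1 log2 unit of E17.5 male PGC. Spermatogonia had 0.07 and -0.02 against 1.07 and 1.08 in E17.5 male PGC, a difference of -1.05 ± 0.49 that did not pass the test (adjusted p = 0.144). Testis was 0.86 below E17.5 male PGC (-0.86 ± 0.50, adjusted p = 0.190) and 0.19 above spermatogonia (0.19 ± 0.50, adjusted p = 0.796). These SE come from a spread shared by all 14 groups. For Brdt the SD was 0.057 in Testis, 0.065 in spermatogonia and 0.007 in E17.5 male PGC, but 1.49 in male ES cells. Arrays of Testis, spermatogonia and E17.5 male PGC did not overlap, so a difference that did not pass is not read as likeness. In bulk samples such as whole testis, fewer cells of a type and less RNA per cell cannot be told apart. The difference of Testis from E17.5 male PGC passed the test in 2 of 13 alternatives, with quantile normalization (-1.43, adjusted p = 0.0341) and with the compared arrays alone (adjusted p = 0.0176). That of spermatogonia from E17.5 male PGC passed in 1 of 13, with the compared arrays alone (limma adjusted p = 0.0205).

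Oogonia had -2.86 and -2.44 for Brdt against -2.35 and -2.11 in E17.5 female PGC, a difference of -0.42 ± 0.49 (adjusted p = 0.583). Spermatogonia exceeded oogonia by 2.68 ± 0.49 (adjusted p = 2.57e-04), a call lost with the deposited value table (1.46, adjusted p = 0.137). Sertoli cell markers (3 of 5) and haploid spermatid markers (2 of 3) were also called higher in spermatogonia, and their part in the result was not tested. Brdt was the 1 member called of 2 tested there, against 33.2% of 15440 genes called higher. GS cells had -2.58 and -2.59, with no overlap with Testis or spermatogonia. Testis exceeded GS by 2.81 ± 0.50 (adjusted p = 2.23e-04), and GS fell below spermatogonia by a log2 difference of -2.61 ± 0.50 (adjusted p = 0.00116), a call lost with slide as a random block (adjusted p = 0.140). The pluripotent lines were lowest, with EG cells from -9.63 to -8.90 and ES cells from -9.03 to -6.43, and their difference of -1.08 ± 0.35 did not pass (adjusted p = 0.0742). Without ES male replicate 1 it was -1.60 and passed (adjusted p = 0.00487). None of 2 members tested passed between EG and ES, where limma called 7.44% of 19093 genes in either direction. Before adjustment 4377 genes, Brdt among them, had a p under 0.05 in that model fitted across all genes.

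In the order of group means for Brdt, E17.5 male PGC came first, then Testis and spermatogonia, whose ranges did not overlap. E17.5 female PGC, GS, oogonia, E13.5 male and E13.5 female PGC followed, with overlapping ranges between neighbours from GS to E13.5 female PGC. E10.5 PGC, ES and EG closed the order. Of its paralogs, acetylated-histone readers of most cells, Brd2 lay between 0.23 and 2.87 on all arrays and Brd3 between 0.81 and 2.50.

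Among PGC, Akap3 passed the flag at E17.5 alone, in both sexes. It measured -5.11 and -4.14 in male and -4.53 and -3.18 in female PGC at E17.5, all well above background. It was not so on any of the 8 arrays of E10.5 and E13.5 PGC. Some of those arrays had limits as high as these levels, -3.58 for E10.5 male replicate 1, -4.91 for E10.5 female replicate 1 and -5.00 for E13.5 male replicate 2. Akap3 could thus have been missed there, and no time of onset is read from the flag. Male and female arrays overlapped at E17.5, with a male minus female difference of -0.77 ± 1.07 (adjusted p = 0.557). Compared with E13.5, Akap3 was at least 10.6-fold higher at E17.5 in females (fitted difference 4.58 ± 1.05, adjusted p = 0.00246, days 3.81 and 5.35) and at least 2.41-fold higher in males (3.21 ± 1.07, adjusted p = 0.0210, days 3.62 and 2.80). An "at least" fold sets the brighter mean against the detection limit of the dim arrays or the dim probe's own signal, whichever is higher. The male call was lost without E13.5 male replicate 1 (2.31, adjusted p = 0.161), without E17.5 male replicate 2 (2.72, adjusted p = 0.139), with normexp correction (0.72, adjusted p = 0.427) and with no filter on dim probes (adjusted p = 0.0598).

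The stage comparison called 2 of 3 tested members higher in males, Brdt and Akap3, where 32.5% of 12971 genes were called higher. In females it called 1 of 2, Akap3, where the share was 22.0% of 11989 genes. Akap3 in both sexes and Ropn1 in males entered through E17.5 alone, so nothing is read from these counts. Blood cell markers also moved with stage. In females the 2 tested, Hba-a1 and Alas2, were called higher at E17.5, with a summed signal of 2.78 to 16.6 against 0.015 to 0.42 at E13.5. In males 1 of 2 was called, with up to 3.76 at E17.5 against up to 0.81 at E13.5. Their part in the Akap3 result was not tested.

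Akap3 was also well above background on both arrays of oogonia and of spermatogonia, whose ages the labels do not give. Oogonia had -5.67 and -5.96 against -4.53 and -3.18 in E17.5 female PGC (-1.96 ± 1.07, adjusted p = 0.200), and spermatogonia had -5.05 and -5.62 against -5.11 and -4.14 in E17.5 male PGC (-0.71 ± 1.07, adjusted p = 0.690). None of 3 members tested passed between spermatogonia and E17.5 male PGC, where 20.4% of 13747 genes were called in either direction. None of 2 passed between oogonia and E17.5 female PGC, where 23.8% of 14008 were. Testis stood 261-fold above spermatogonia for Akap3 (8.03 ± 1.08, adjusted p = 1.40e-05). GS had -9.85 and -8.44, the second alone well above background, against -5.05 and -5.62 in spermatogonia (-3.81 ± 1.08, adjusted p = 0.0156). That call was lost without GS replicate 1 (-3.10, adjusted p = 0.140), without spermatogonia replicate 1 (-3.52, adjusted p = 0.0983) or replicate 2 (-4.09, adjusted p = 0.0517), and with slide as a random block (adjusted p = 0.279). With Brdt it made 2 of 3 tested members lower in GS, against 13.3% of 21226 genes. Akap3 entered this test through spermatogonia alone and Prm1 through GS alone, so nothing is read from the count. Blood markers (2 of 2, median log2 difference -7.39) and Sertoli cell markers (3 of 7) were also called lower in GS. Haploid spermatid markers had 0 of 4 called by limma, with a summed signal of 0.0238 to 0.0851 in GS and 0.205 to 0.223 in spermatogonia. The part of these markers in the Akap3 and Brdt results was not tested.

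For Akap4, the other main A-kinase anchor of the fibrous sheath, the brighter of 2 probes gave 2.35 and 2.40 in Testis, and among the other groups it passed the flag on both arrays in GS alone, with -9.44 and -8.36. It was not so on any array of E13.5 or E17.5 PGC, where Akap3 was in 4 of 4 E17.5 arrays.

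Ropn1 reached both arrays of 1 group before testis, E17.5 male PGC, with -6.44 and -5.53. E17.5 female PGC had -7.96 and -8.93, neither well above background. The limit was -5.87 for E17.5 female replicate 1, -5.00 for E13.5 male replicate 2 and -3.58 for E10.5 male replicate 1. Ropn1 at the level of E17.5 males could thus have been missed on such arrays. The male level was at least 1.38-fold higher (fitted difference 2.45 ± 0.95, adjusted p = 0.0382), and within scan days the difference was 1.51 and 3.396. This call was lost in 8 of 14 alternatives. Among them were all 4 that left out 1 array, with adjusted p from 0.060 (without E17.5 female replicate 1) to 0.190 (without E17.5 male replicate 2). With Brdt it made 2 of 3 tested members higher in males, against 32.5% of 13387 genes. Ropn1 entered this test through the male arrays alone, so nothing is read from the count. With no filter on dim probes its limma adjusted p was 0.0981. Against E13.5 males, with -8.85 and -7.25, the difference of 2.06 ± 0.95 did not pass (adjusted p = 0.0831), with 2.40 and 1.72 by day. It passed with quantile normalization (3.14, adjusted p = 3.37e-05) and with slide as a random block (2.12, adjusted p = 0.0314).

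Spermatogonia had -6.76 and -6.77 for Ropn1, the second well above background, and Testis stood 9.49 ± 0.97 above them on the log2 scale (adjusted p = 7.68e-07). With the first array raised to its limit the difference was 9.32, or 638-fold. The paralog Ropn1l, a related sheath protein, was well above background on 17 of the 26 arrays before testis. It had -1.09 and -1.10 in E17.5 male and -1.77 and -2.29 in E17.5 female PGC, against -6.31 and -6.56 (not well above background) in E13.5 male and -4.97 and -5.36 in E13.5 female PGC. Ropn1l rose in both sexes, at least 23.5-fold in males (adjusted p = 5.23e-05) and by 3.13 ± 0.78 in females (adjusted p = 0.00430).

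Prm1, Gapdhs and Smcp had signal far above 0 in Testis and, elsewhere, signal near the detection limit at most. Prm1 was well above background on both GS arrays, at -8.96 and -9.24, and on 1 female ES array, at -9.47. GS arrays shared a slide with Testis and had limits of -9.82 and -10.73, while the Prm1 levels in GS lie below the limits of the PGC arrays, which ran from -7.97 to -3.58. Testis stood 13.44 ± 1.34 above GS on the log2 scale for Prm1 (adjusted p = 6.21e-07) and at least 2264-fold above spermatogonia, which had -8.13 and -7.42 (adjusted p = 1.86e-06).

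Gapdhs was well above background on both female ES arrays, at -9.23 and -8.71, and on 1 array each of E13.5 male PGC (-5.62) and female EG cells (-9.17). It stood in Testis at least 1035-fold above spermatogonia, at -6.97 and -8.41 (adjusted p = 6.00e-07), and at least 11470-fold above GS, at -10.01 and -10.74 (adjusted p = 6.61e-08). The somatic isozyme Gapdh had -1.15 and -1.19 in Testis, against 0.26 and 0.52 in GS. Gapdh levels reached 2.28 in EG cells, and the accession given for its probe differed between array design files.

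Smcp had no array well above background before testis. Its readings were -11.66 and -12.92 in GS and -8.14 and -9.32 in spermatogonia, so Testis was at least 7491-fold above GS (adjusted p = 2.74e-08) and at least 676-fold above spermatogonia (adjusted p = 4.12e-07). All 6 genes were well above background on both Testis arrays, and several entered these comparisons through Testis alone, so the counts of members called are a description from which nothing is read. Of the 6, 6 were called higher than in GS, where 25.3% of 24178 genes were, and 5 higher than in spermatogonia, where 24.5% of 22967 were. Compared with E17.5 male PGC, 5 of 6 were called higher in Testis, against 22.3% of 22968 genes.

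**Figure D4:**
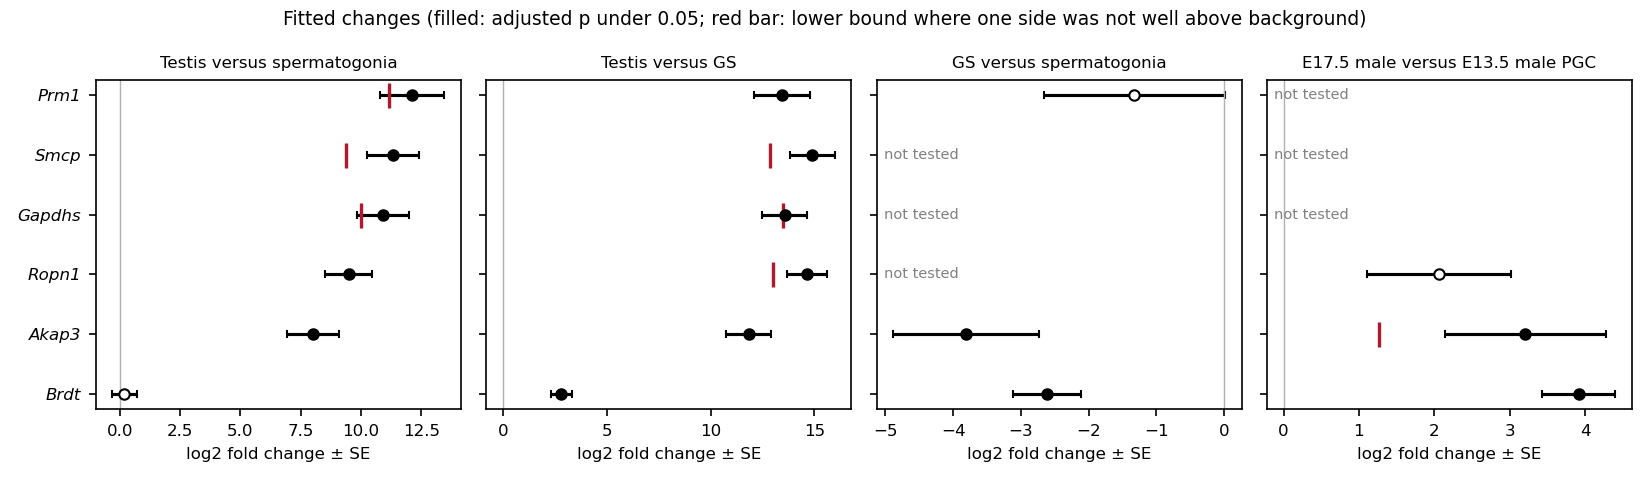
Log2 fold change with its SE (x axis) for each of the 6 genes (y axis) in 4 comparisons of the fit across all arrays. Filled points had an adjusted p under 0.05, and red bars mark the lower bound where 1 side was not well above background. Brdt at 0.19 is the one point near 0 in the comparison of Testis with spermatogonia, and in E17.5 against E13.5 males it is the highest at 3.92.

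Other sperm genes were read from 5 lists, many of whose genes likewise entered through Testis. Of the genes tested, Testis exceeded spermatogonia for 3 of 3 in sperm chromatin (median log2 difference 9.64), 12 of 12 in fibrous sheath and tail (5.90), 6 of 7 in sperm energy metabolism (3.16), 11 of 11 in acrosome and egg binding (8.43) and 10 of 11 spermatid and spermatocyte regulators (5.67). The median over all genes tested was 0.15. The 3 genes of each list with the highest Testis level are named, with no order between lists. For the tail they were Odf2 at 3.69 ± 0.13 and Odf1 at 3.58 ± 0.03 (outer dense fibre proteins) and Spa17, a sperm surface protein, at 3.36 ± 0.05 (SD, n = 2). For energy they were Gk2, a glycerol kinase, at 2.77, Ldhc at 2.48 and Cox8c at 1.71. For chromatin they were H1f7, a spermatid linker histone, at 2.60, Tnp1 at 2.07 and Prm3 at 0.70. For the acrosome they were Crisp2 at 2.50 and Spaca3 and Adam2 at 2.04 each, and for the regulators Hspa1l at 1.90, Tbpl1 at 1.83 and Piwil1 at 1.55.

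Some of these genes also preceded the testis. Tnp1, a transition protein that bridges histones and protamines, had -2.30 and -2.56 in E17.5 male PGC, against -7.61 and -8.62 (not well above background) in E17.5 female PGC, and was at least 16.2-fold higher in males (adjusted p = 5.05e-04). Tnp1 had -2.53 and -2.86 in spermatogonia and 2.03 and 2.12 in Testis. Of Prm1 and Tnp1, both carried by chromatin late in spermatid life, Tnp1 alone was well above background on E17.5 male arrays. Ldhc, the sperm lactate dehydrogenase, was at -0.14 in E17.5 male PGC and -2.07 in female PGC, a difference of 1.92 ± 0.31 (adjusted p = 8.79e-05). Spaca1, an acrosome membrane protein, ran the other way, at -6.91 in males (not well above background) and -3.13 in females, so that females were at least 9.73-fold higher (adjusted p = 1.73e-05).

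In E17.5 males against E13.5 males, 5 of 8 tested tail genes rose and 2 fell, 3 of 4 energy genes rose, 1 of 2 acrosome genes rose and 5 of 7 regulators rose. Tnp1 was the 1 chromatin gene tested and rose. Of all genes tested in males 32.5% were called higher and 2031 of 12971 lower. Tail genes well above background on both arrays numbered 4 of 12 at E13.5 and 8 of 12 at E17.5 in males. Tnp1 and some of the tail genes thus entered through E17.5 alone, so nothing is read from the counts and medians of the lists. The tail medians were 2.13 in males and 1.04 in females, against 0.47 and 0.10 over all genes tested. Spa17 rose by 2.22 ± 0.34, while Odf2 (-1.46 ± 0.19) and Gsk3a, a kinase of many tissues (-0.53 ± 0.17), fell. Piwil1, which binds piRNAs, rose in both sexes (3.16 ± 0.50 in males, 3.33 ± 0.49 in females). Taf7l, a germ cell subunit of the general transcription machinery, was at -1.74 in E17.5 male and 1.88 in E17.5 female PGC, a difference of -3.62 ± 0.99 (adjusted p = 0.00562). In females 2 of 4 tail genes rose, 2 of 4 energy genes rose and 1 fell, 2 of 2 acrosome genes rose and 4 of 6 regulators rose, against 22.0% of all genes tested. Only part of each list was matched on the array, 3 of 8 for sperm chromatin and 12 of 16 for tail genes, and Prm2 and Tnp2 were not matched.

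**Figure D5:**
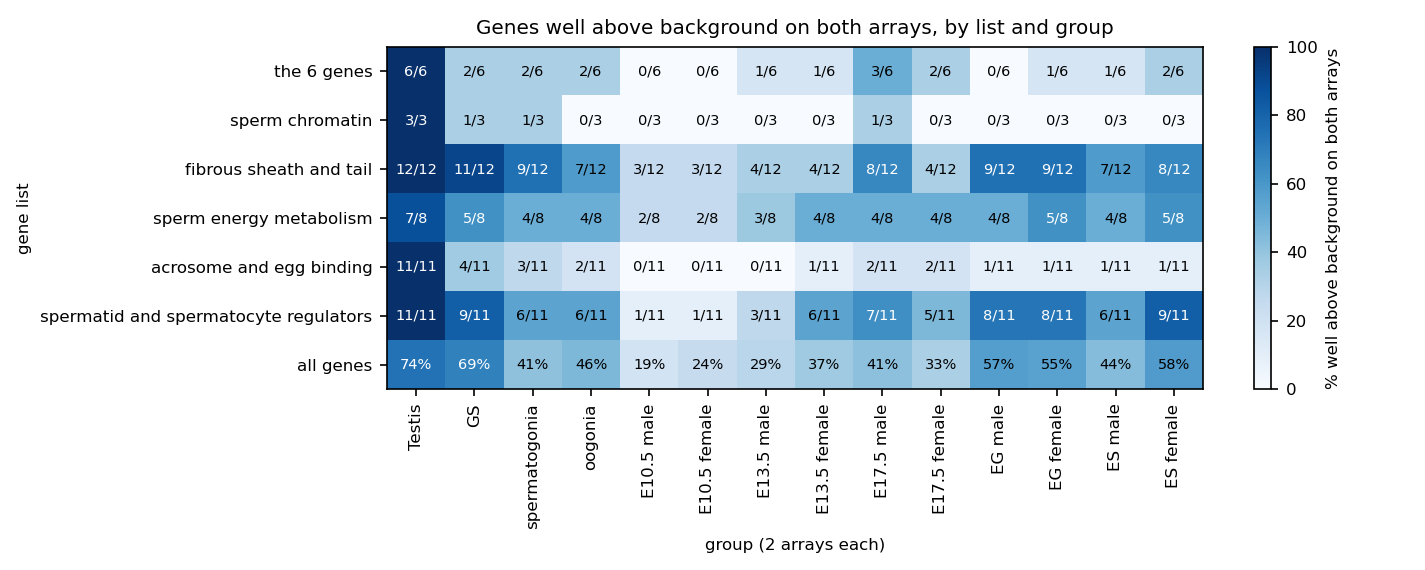
Genes well above background on both arrays, by list (y axis) and group (x axis), as a count of those on the array and shaded by percent, with the percent of all 30632 genes in the last row. The 6 genes reach 3 in E17.5 male PGC, 2 in E17.5 female PGC and 6 in Testis.

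The genes whose pattern was most like each member were named by Pearson r over 14 group means, as a description, since the means share arrays and, for dim genes, the limits of those arrays. Ndst2 (r = 0.974), Trappc12 (0.972) and Serf1 (0.969) were closest to Brdt. Without Testis the first was Efcab5 (0.974, 13 means). Oaz3 (0.975), Spata4 (0.973) and 1700012B09Rik (0.973) were closest to Akap3, and Dynlrb2 (0.950) without Testis. The closest to Ropn1 were Spata20 (0.983), Prss21 (0.983) and Cmtm2b (0.980). Prm1 was closest to 1700012A03Rik (0.991), Smcp to Ubqlnl (0.996) and Gapdhs to Znrf4 (0.987). For the genes other than Brdt, Testis lay far above every other group, so r over 14 means rests largely on it. Without Testis the first was Fabp12 for Ropn1 (0.982), Pax4 for Prm1 (0.984) and Kcnh3 for Gapdhs (0.940).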

How the data were processed

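Single-colour (Cy3) Agilent arrays of 28 samples were read as deposited. Per the file headers, Agilent Feature Extraction 10.5.1.1 computed the processed signal, an intensity that is linear and has its background removed. The authors' deposited value table holds log2 values, which matched log2 of that signal minus each array's median to within 0.0025, and served as an alternative.

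Control spots (1417) and 514 of 43803 probes that were non-uniform on an array were dropped. Levels are log2 processed signal minus the array's 75th percentile over 7286 probes well above background on all 28 arrays. Accessions were matched to RefSeq (GRCm38.p6; array coordinates are mm9), giving 13143 symbols for 16760 probes. The brightest probe stood for a gene. In R 4.3.3, limma 3.58.1 (lmFit, eBayes) fitted 1 mean per group over all arrays. Genes entered a test when both arrays of either compared group passed the flag, and Benjamini-Hochberg adjusted p under 0.05 over all genes tested is a call.

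The number of arrays, 2 a group, limits precision. Replicate numbers paired the PGC arrays, which share scan days: deviations of same-numbered PGC groups correlated with r from 0.294 to 0.796 over 15 pairs, and other pairs of groups from -0.177 to 0.258 (76 pairs). Alternatives covered scaling, background correction, filters, slide, replicate block and each array left out. Normexp used the median signal, since the files hold no mean signal column. The 6 genes, the lists and the tests were chosen with earlier results of these data known. Named genes are the 6, their paralogs, and from each list the 3 highest in Testis and up to 4 seen earlier. One gene under that rule is not reported here. Testis against E17.5 male PGC, spermatogonia against oogonia, the common detection limit, arrays raised to their limit and TGANGTCA were added after seeing the data.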

Additional observations from a re-analysis of the deposited data

Results flagged for a closer look

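One result met a rule for a closer look, because the effect of stage differed between the sexes by a test of that difference. For Brdt the change between E13.5 and E17.5 in male PGC minus that in female PGC was 3.18 ± 0.69 on the log2 scale (SE, limma, adjusted p = 0.00209). The male change was 3.92 and the female change 0.74, and the difference was 3.35 and 3.002 within the 2 scan days. It kept its direction and its call under 18 of 18 alternatives, from 2.71 to 3.50, with adjusted p from 0.00102 to 0.0345. Sertoli cell markers were higher in E17.5 male than in E17.5 female PGC, 6 of 6 tested, where 32.5% of 13387 genes were. The part of these markers in the Brdt result was not tested.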

How the results depend on the processing

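Over 592 comparisons of a member under an alternative, 558 kept their side of the threshold, 25 lost the call, 9 gained it and 0 calls reversed. The sign differed in 8 of them, none a call, in 3 results: Brdt in Testis against spermatogonia (-0.40 to 0.24) and in oogonia against E17.5 female PGC (-0.63 to 0.39), and Akap3 in spermatogonia against oogonia (-0.74 to 0.92). Counts of members called moved by over 1.5 times as follows, and where no value is given the cause was not tested. With the 75th percentile over all probes, E17.5 male against female PGC gave 1. With normexp, oogonia against E17.5 female PGC gave 1, E13.5 against E10.5 gave 0 in males and 0 in females, E17.5 against E13.5 males gave 1 and E17.5 male against female PGC gave 1. Quantile normalization gave 2 for the interaction of stage and sex. The deposited value table gave 0 for E13.5 against E10.5 males, 1 for E17.5 male against female PGC and 0 for spermatogonia against oogonia. With no filter on dim probes, GS against spermatogonia gave 4, E13.5 against E10.5 males 0, E17.5 against E13.5 males 1, E17.5 male against female PGC 1 and spermatogonia against oogonia 2. With the compared arrays alone, spermatogonia against E17.5 male PGC gave 1 and E13.5 against E10.5 males 0. Slide as a random block gave 0 for GS against spermatogonia. Leaving out 1 array gave 1 to 2 for GS against spermatogonia, 0 to 1 for E13.5 against E10.5 males, 1 to 2 for E17.5 against E13.5 males, 1 in each case for E17.5 male against female PGC, 0 to 1 for EG against ES and 1 to 2 for spermatogonia against oogonia. Single gains beside these were Prm1 in GS against spermatogonia with normexp (-3.03, adjusted p = 6.56e-04), and, as given above, Ropn1 in E17.5 against E13.5 males and Brdt in Testis against E17.5 male PGC. A common detection limit left 1 member before testis, since fewer arrays reach it.

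With the replicate block, the count of members called was 5 for Testis against spermatogonia, 6 for Testis against GS and 2 for GS against spermatogonia, and the pairing changed no call of a member.

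Scaling moved the median of all genes by -1.86 to 0.81, and the share of calls that were higher moved as well. It was 54.6% for Testis against spermatogonia (18.8% to 44.7% under other scalings), 54.3% for Testis against GS (41.7% to 52.8%), 49.7% for GS against spermatogonia (9.75% to 50.5%), 42.9% for spermatogonia against E17.5 male PGC (34.9% to 63.0%), 30.8% for oogonia against E17.5 female PGC (15.8% to 92.9%), 64.0% and 69.8% for E13.5 against E10.5 in males and females (32.6% to 70.7%, 35.5% to 93.5%), 67.5% and 55.0% for E17.5 against E13.5 (44.4% to 86.7%, 33.1% to 56.7%), 59.0% for E17.5 male against female PGC (47.2% to 61.1%), 59.4% for the interaction (46.2% to 88.1%), 67.8% for EG against ES (50.1% to 61.9%), 50.3% for Testis against E17.5 male PGC (15.8% to 48.0%) and 64.9% for spermatogonia against oogonia (31.1% to 77.4%).

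Genes called over all alternatives ranged from 5879 to 17021 for Testis against spermatogonia (10313), 988 to 13722 for GS against spermatogonia (5602), 118 to 4087 for spermatogonia against E17.5 male PGC (2807), 212 to 3340 for oogonia against E17.5 female PGC (3340), 182 to 3170 and 948 to 4873 for E13.5 against E10.5 (2369 males, 3970 females), 2214 to 7461 and 1308 to 5675 for E17.5 against E13.5 (6243, 4803), 3561 to 8709 for E17.5 male against female PGC (7370), 1499 to 6344 for the interaction (4613), 0 to 5000 for EG against ES (1421), 7273 to 17821 for Testis against E17.5 male PGC (10175) and 4168 to 9874 for spermatogonia against oogonia (7902). The 0 came from limma with slide as a random block, and 4377 genes had an unadjusted p under 0.05 without it. Dim probes limit the members outside Testis, Brdt on 3 of 26 arrays, since detection limits differ between arrays.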
